A study of Mus musculus with 12 samples.

Results

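Major histocompatibility complex (MHC) and antigen presentation genes were followed in the RNA of whole mouse kidneys. The members were the genes whose symbol begins with H2-, together with B2m, Cd74, Ciita, Tap1, Tap2, Tapbp and Nlrc5, and the deposited transcript with the highest total count stood for each symbol. This rule gave 50 of the 24421 gene symbols measured. Of these, 36 belong to class I, 12 to class II and 2 to neither class as listed here (H2-K2, a class I transcript annotated as non-coding, and H2-Ke6, a dehydrogenase gene that lies among the MHC genes). On mm9, 46 members lie on chromosome 17, and B2m, Cd74, Ciita and Nlrc5 lie elsewhere.

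The 12 libraries came from male C57BL/6 mice at 6 weeks old in 4 groups of 3. WT baseline and Tet2-/- baseline kidneys came from mice with no operation. WT IR and Tet2-/- IR kidneys were taken 24 h after the right renal pedicle had been clamped for 60 min and the left kidney removed, so the effect called IR here holds the surgery and the loss of the other kidney as well as ischemia and reperfusion. No sham-operated mice were sequenced. The Tet2 deletion was carried by every cell of the mouse, including blood cells, and Tet2 encodes an enzyme that oxidizes methylated cytosine in DNA. The labels do not name the mice, so the tests measure the spread between these libraries.

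Class I molecules, a heavy chain with B2m as the light chain, show peptides from inside the cell to CD8 T cells and are made by nearly all nucleated cells. The peptides enter the endoplasmic reticulum through the Tap1 and Tap2 transporter and are loaded with the help of Tapbp, and Nlrc5 is the transactivator of class I promoters. Class II molecules, pairs of an alpha and a beta chain, show peptides from taken-up protein to CD4 T cells and are made mainly by dendritic cells, macrophages and B cells. Their assembly needs Cd74 (the invariant chain), their peptide exchange needs H2-DM, which H2-O restrains, and their transcription needs Ciita.

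Tet2 itself was measured first. Its FPKM (fragments scaled to transcript length and library depth, as deposited) was 9.15, 6.25 and 7.33 in WT baseline libraries and 9.25, 16.6 and 10.3 in Tet2-/- baseline libraries. After IR it was 9.34, 3.97 and 3.86 in WT libraries, and those labelled Tet2-/- had 2.64, 3.20 and 1.76. Tet2 RNA was thus not lower in the baseline libraries labelled Tet2-/- (log2 fold change 0.76, adjusted p = 0.319, edgeR's quasi-likelihood test with Benjamini-Hochberg adjustment), and whether the counted transcript holds the deleted part was not examined, so every genotype direction below is that of the labels. Libraries held 51007362 to 107969879 counts, of which the members took 0.174% to 0.295%. The markers of the labelled tissue were high, with the summed FPKM of 8 proximal tubule genes between 629 and 3856.

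The 2 WT libraries numbered 1 stood apart from the other 10 in a few members. H2-T10, a T region class I gene, had an FPKM of 6.43 in WT baseline replicate 1 and 5.52 in WT IR replicate 1, against 0.492 to 1.31 in the others. H2-Ea-ps, the class II alpha chain gene that is a pseudogene in C57BL/6 mice, was at 0.814 and 0.102 in those libraries and at no more than 0.027 elsewhere. H2-Q1 and H2-T3 were also higher in both than in any other library. Of the 25 members averaging 1 FPKM or more over all libraries, only H2-T10 did this (4.0%), beside 1.23% of all genes at that level (1.54% when genes lower in both are added). Results on the WT groups are therefore also given without these libraries where they rest on them.

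The stretches of 200 bases before the start of 3 class II and 3 class I genes are shown first, because class II and class I promoters are known for different control elements and the genes shown include both called and uncalled members of each class. They are RefSeq sequences on GRCm38.p6, each read 5′ to 3′ on the strand of its gene: H2-Aa at chr17:34287824-34288023 (minus), H2-Eb1 at chr17:34305667-34305866 (plus), H2-DMb1 at chr17:34152991-34153190 (plus), H2-K1 at chr17:34000348-34000547 (minus), H2-D1 at chr17:35262894-35263093 (plus) and H2-T22 at chr17:36042743-36042942 (minus). Capitals mark matches on either strand to GATTGG (the core of the Y box, CCAAT on the other strand), CTNGNAACT (the core of the X box), AGTTTCNNT (the core of an interferon-stimulated response element) and GGGANTCCC (the core of an NF-kB site), where N is any base.
H2-Aa: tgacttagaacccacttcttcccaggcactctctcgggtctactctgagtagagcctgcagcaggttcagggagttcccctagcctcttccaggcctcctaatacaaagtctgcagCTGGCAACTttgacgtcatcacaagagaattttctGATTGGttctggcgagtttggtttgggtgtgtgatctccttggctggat
H2-Eb1: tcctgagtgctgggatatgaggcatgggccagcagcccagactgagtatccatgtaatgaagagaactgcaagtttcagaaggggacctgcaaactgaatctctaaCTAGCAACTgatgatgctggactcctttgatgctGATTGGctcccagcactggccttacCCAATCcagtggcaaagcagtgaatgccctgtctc
H2-DMb1: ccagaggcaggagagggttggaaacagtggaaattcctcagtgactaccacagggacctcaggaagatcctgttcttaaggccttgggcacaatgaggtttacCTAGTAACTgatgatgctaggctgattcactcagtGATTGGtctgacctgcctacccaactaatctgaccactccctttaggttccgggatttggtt
H2-K1: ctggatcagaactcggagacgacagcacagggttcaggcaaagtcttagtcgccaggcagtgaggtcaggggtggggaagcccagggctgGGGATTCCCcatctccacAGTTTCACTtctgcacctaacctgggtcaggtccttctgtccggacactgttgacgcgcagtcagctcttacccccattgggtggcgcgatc
H2-D1: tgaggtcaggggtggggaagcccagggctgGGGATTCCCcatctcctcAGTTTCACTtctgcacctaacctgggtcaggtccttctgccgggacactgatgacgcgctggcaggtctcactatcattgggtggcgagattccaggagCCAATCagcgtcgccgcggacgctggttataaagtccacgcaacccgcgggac
H2-T22: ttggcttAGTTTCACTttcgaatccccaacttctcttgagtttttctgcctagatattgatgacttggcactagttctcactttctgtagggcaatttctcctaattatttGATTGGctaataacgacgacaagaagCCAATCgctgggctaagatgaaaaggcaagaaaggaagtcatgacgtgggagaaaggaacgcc
The letters searched were chosen with these sequences in view, and a match is a description of the letters only. In windows of 300 bases (250 before to 50 after the start), which 34 of the 50 members had, CTNGNAACT occurred in 3 of 8 class II genes (H2-Aa, H2-Eb1 and H2-DMb1) and in 2 of 25 class I genes, beside 4.1% of all 32851 RefSeq windows. AGTTTCNNT occurred in 10 of 25 class I genes, H2-K1, H2-D1 and H2-T22 among them, and in 1 of 8 class II genes, beside 4.94% of all windows. GGGANTCCC occurred in 4 class I genes (H2-K1, H2-D1, H2-Q6 and H2-Q7) and in 0 class II genes, beside 0.767% of windows. GATTGG was in 7 of 8 class II and 18 of 25 class I genes, beside 16.1% of windows. Matches to different motifs overlapped 0 times in the 6 genes shown.

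Few genes made up nearly all of each class in the kidney. B2m, H2-K1, H2-D1, H2-T22 and H2-T23 together gave 90.6% ± 1.44 (SD, n = 3) of the summed class I FPKM in WT baseline libraries, and Cd74, H2-Aa, H2-Ab1 and H2-Eb1 gave 93.5% ± 1.71 of the class II sum. In at least 1 group, 31 members reached a mean FPKM of 1. The other 19 were lower, and H2-M10.3, H2-M10.4 and H2-M11 had no count in any library. H2-Oa, H2-Ob, H2-M2, Ciita and Nlrc5 were among the low ones, H2-Ob at 0.364 ± 0.172 and Ciita at 0.316 ± 0.134 FPKM in WT baseline libraries.

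Several members share sequence or reads, which limits what a single symbol can tell. H2-D1 and H2-L, H2-T22 and H2-T9, H2-Q6 and H2-Q8, and H2-Q7 and H2-Q9 are pairs of transcripts at the same place on chromosome 17, so that the same reads were counted for both, and the 50 symbols stand for 46 loci. H2-T10 and H2-T22 transcripts are 97.222% identical over 1764 bases, H2-DMb1 and H2-DMb2 95.401% over 848, H2-Q6 and H2-Q7 94.821% over 1004, and H2-K1 and H2-D1 88.415% over 1502, so reads could be split among them and the values of these genes are uncertain to that extent.

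**Figure D1:**
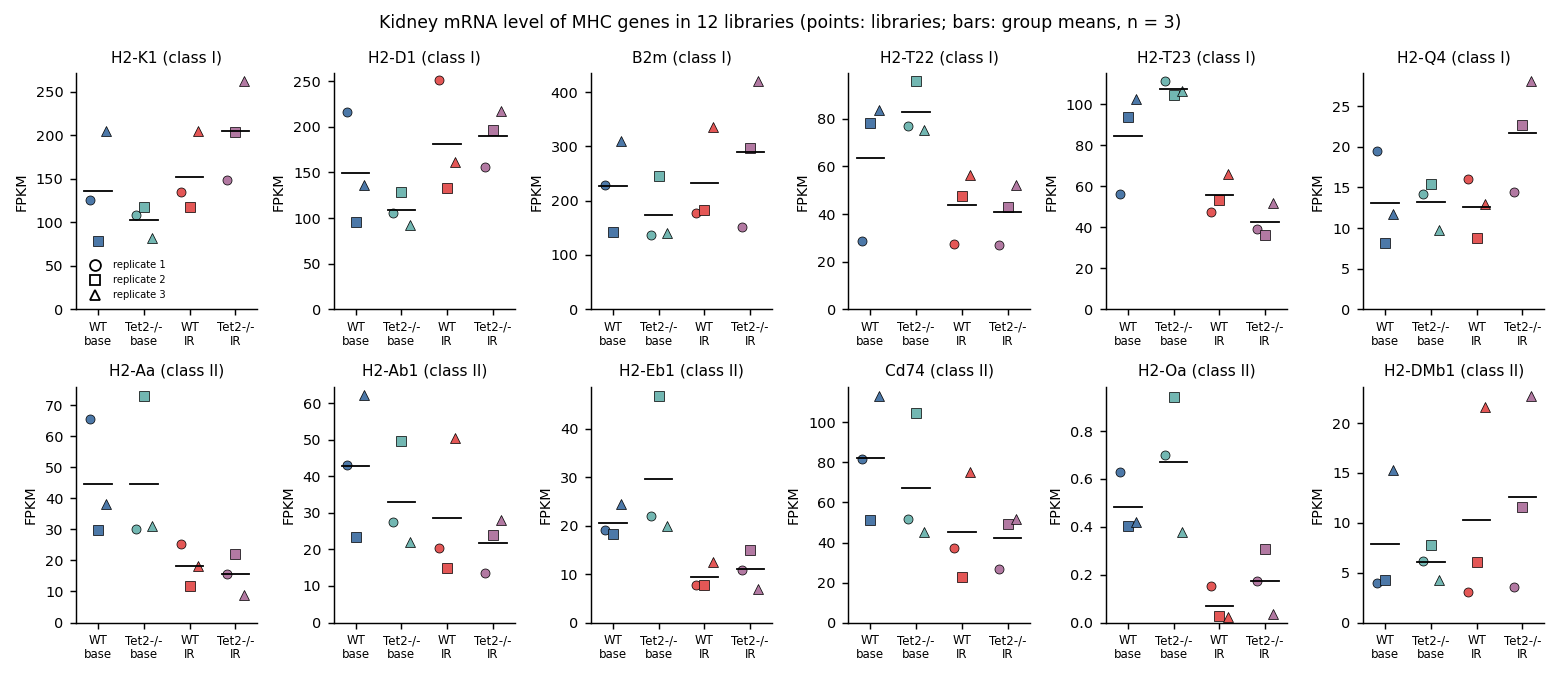
FPKM of 6 class I genes (upper panels) and 6 class II genes (lower panels) in 12 libraries, with circles, squares and triangles for replicates 1, 2 and 3 of each group and a bar at each group mean (n = 3). H2-Aa, H2-Eb1 and H2-Oa libraries after IR lie below every baseline library of either genotype, whereas H2-DMb1 libraries after IR spread from 3.08 to 22.7.

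In kidneys with no operation, no member passed the test between genotypes. A call here needs more than a 2-fold difference in either direction together with an adjusted p below 0.05. Of the 37 members tested, edgeR's quasi-likelihood test called 0, beside 0.0124% of all 16108 genes, and DESeq2 called 0, beside 2% of genes. At an unadjusted p under 0.05 stood 1 member, H2-Bl, a T region gene with an adjusted p of 0.408, beside 11.8% of all genes. H2-T23 alone had its groups apart, higher in Tet2-/- (0.44 ± 0.22 SE, adjusted p = 0.472), beside 3.05% of genes apart that way and 16.5% the other way. Without WT baseline replicate 1, the lowest of the 6, its difference was 0.21 (adjusted p = 0.636, edgeR). The median log2 fold change, Tet2-/- over WT, was −0.07 over the 21 class I loci tested and 0.08 over the 10 class II loci, beside 0.004 over all genes. In WT libraries the level of H2-K1 was 136 ± 63.7 FPKM (SD, n = 3), B2m 228 ± 84.0, H2-Ab1 42.8 ± 19.4 and Cd74 82.2 ± 31.0. The Tet2-/- libraries had 102 ± 18.4, 174 ± 61.0, 33.1 ± 14.6 and 67.2 ± 32.5. These spreads are wide, so a difference smaller than the spread could not be seen with 3 mice a group.

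In Tet2-/- mice members changed in both directions after IR. The share of loci called, 10 of 33, was near that of all genes, 24.3%. The class II chains H2-Aa and H2-Eb1 fell, 3 of 5 T region class I loci tested fell, and the classical class I heavy chains were higher in every IR library than in any baseline library. In all, 11 of the 37 members tested were called, at 10 of 33 loci. Of these loci, 9 were lower, beside 11.6% of all 16374 genes, and 1 was higher, beside 12.8% (24.3% in either direction). DESeq2 also called 11, beside 24.9%. At an unadjusted p under 0.05 stood 19 members, beside 51.9%. In bulk RNA, fewer cells that make a gene and less RNA in each cell cannot be told apart.

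H2-Aa, the class II A alpha chain, was at 30.2, 72.8 and 31.0 FPKM in Tet2-/- baseline libraries and at 15.7, 22.1 and 8.78 after IR. H2-Eb1, the class II E beta chain, went from 21.96, 46.7 and 19.9 to 10.9, 14.9 and 7.02. All IR libraries lay below all baseline libraries for both genes, the second baseline replicate being the highest of all 12 libraries for each. H2-Aa fell by 1.81 ± 0.41 on the log2 scale (SE, 3.50-fold lower, adjusted p = 0.0106) and H2-Eb1 by 1.71 ± 0.37 (3.26-fold lower, adjusted p = 0.00821, edgeR's quasi-likelihood test). Both stayed called under each of 17 other settings.

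H2-Oa and H2-Ob, the chains of the H2-O molecule that restrains peptide exchange, fell further but from few reads. H2-Oa had 54.5, 147.5 and 37.0 counts in Tet2-/- baseline libraries and 20.0, 41.5 and 3.5 after IR, which as FPKM did not overlap (0.377 to 0.940 against 0.036 to 0.309). Its log2 fold change was −2.21 ± 0.65 (SE, adjusted p = 0.0275, edgeR), and that of H2-Ob was −2.43 ± 0.81 (adjusted p = 0.0441), with 100.5, 303.5 and 80.5 counts before and 28.0, 86.5 and 3.0 after. Both lost the call in several settings, the adjusted p running up to 0.0916 for H2-Oa and 0.125 for H2-Ob.

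The rest of class II did not pass. H2-Ab1, the A beta chain, was at 27.5, 49.6 and 22.1 FPKM at baseline and 13.4, 23.9 and 28.1 after IR (log2 fold change −0.85 ± 0.36 SE, adjusted p = 0.0945, edgeR). Cd74 was at 51.7, 104.6 and 45.3, then 26.5, 49.1 and 51.6 (−0.92 ± 0.37, adjusted p = 0.0804). In both genes the second and the third IR library lay within the baseline range. The third IR library also stood apart in tissue markers, 7 adipocyte genes summing to 601 FPKM against 114 and 81.4 in the other IR libraries of its group and 2 thick ascending limb genes to 373 against 2075 and 2558. The adipocyte sum was also uneven in WT baseline libraries, at 59.7, 134 and 274 FPKM, beside 38.6 to 72.4 in Tet2-/- baseline libraries. The part of these tissues in the result was not tested. Without Tet2-/- IR replicate 3, 12 members were called, H2-Ab1 among them (−1.15, adjusted p = 0.0405). H2-DMb1, a beta chain of the peptide exchange molecule, was at 6.16, 7.78 and 4.26 at baseline and at 3.53, 11.6 and 22.7 after IR, with overlap (0.83 ± 0.59, adjusted p = 0.292, edgeR). Without Tet2-/- IR replicate 1 it was called higher (1.27, adjusted p = 0.0441). H2-DMa, its alpha chain, H2-DMb2, the other beta chain, and Ciita had log2 fold changes of −0.22, 0.47 and 0.05, with adjusted p from 0.590 to 0.941.

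Among class I genes, called members were found in both directions. H2-T23, the Qa-1 heavy chain that is a ligand of receptors on natural killer cells, was at 111, 104 and 106 FPKM in Tet2-/- baseline libraries and at 39.2, 36.1 and 51.6 after IR. H2-T22, a ligand of gamma delta T cells, was at 76.9, 95.7 and 75.4, then 27.0, 43.2 and 52.1. In both, the groups did not overlap. H2-T23 fell by 1.59 ± 0.19 on the log2 scale (SE, 3.0-fold lower, adjusted p = 0.000761) and H2-T22, whose reads are also those of H2-T9, by 1.27 ± 0.26 (2.41-fold lower, adjusted p = 0.00637, edgeR), and both stayed called under each of 17 other settings. H2-Bl, at 1.73, 0.801 and 1.01 FPKM and then 0.324, 0.175 and 0.384, fell by 2.23 ± 0.47 (adjusted p = 0.00772, edgeR), a call lost in 1 of 17 other settings. H2-T10 and H2-T24, the remaining T region genes tested, had log2 fold changes of −0.66 and 0.06 with adjusted p of 0.1 and 0.953.

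The classical heavy chains went the other way. H2-K1 was at 108, 117 and 81.8 FPKM at baseline and at 149, 203 and 262 after IR, and H2-D1 was at 105.1, 128 and 92.4, then 156, 197 and 217. Neither gene had overlapping groups, as in 40.4% of all genes that were higher in this way. The log2 fold change of H2-K1 was 0.75 ± 0.25 (SE, 1.69-fold, adjusted p = 0.0446, edgeR), under the limit of 2-fold for a call, and that of H2-D1 was 0.56 ± 0.20 (1.47-fold, adjusted p = 0.0549). The transcript H2-L, which shares the reads of H2-D1, was at 0.73 ± 0.19 (adjusted p = 0.0185). In the Q region, all 7 loci tested had a positive log2 fold change, from 0.12 to 1.51. H2-Q2 alone was called, at 0.361, 0.207 and 0.341 FPKM before and 0.691, 1.29 and 1.12 after IR (1.51 ± 0.39, adjusted p = 0.0174, edgeR), a call lost in 3 of 17 other settings (adjusted p up to 0.0689). H2-Q4 was at 13.1 ± 2.95 and 21.7 ± 6.86 (adjusted p = 0.192), H2-Q7, whose product is the Qa-2 antigen and whose reads are also those of H2-Q9, at 4.61 ± 1.64 and 6.06 ± 3.34 (adjusted p = 0.833), H2-Q6 and H2-Q8 together, the same reads again, at an adjusted p of 0.403 and 0.409, H2-Q5 at 0.192 and H2-Q10, a secreted class I chain, at 0.492. H2-Q10 was called higher in 1 of 17 other settings.

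The light chain and the loading machinery were not called. B2m was at 138, 245 and 141 FPKM in Tet2-/- baseline libraries and at 152, 297 and 421 after IR, with overlapping groups (log2 fold change 0.49 ± 0.40 SE, adjusted p = 0.345, edgeR). Tap2 was at 7.13, 8.11 and 5.22, then 8.49, 13.8 and 15.7, with no overlap (0.64 ± 0.26, adjusted p = 0.0794). Tap1 and Tapbp had log2 fold changes of 0.73 and 0.45 (adjusted p = 0.0901 and 0.159), and Nlrc5 of 0.73 (adjusted p = 0.297). H2-M3, which presents formylated bacterial peptides, was at 1.31 ± 0.456 and 2.73 ± 1.32 (adjusted p = 0.184). H2-M2 fell by 2.58 ± 0.74 (adjusted p = 0.0253, edgeR) at 10 to 59.5 counts before and 2.0 to 12.5 after, with overlapping FPKM, and lost the call in 5 of 16 other settings (adjusted p up to 0.0826).

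Both genes outside the classes had all IR libraries below baseline. H2-Ke6 was at 111, 88.0 and 98.2 FPKM at baseline and at 51.4, 54.2 and 60.3 after IR, the groups apart, and fell by 1.09 ± 0.15 (2.13-fold lower, adjusted p = 0.00117, edgeR), under 2-fold in 3 of 17 other settings. H2-K2 was at 4.98, 3.62 and 4.66, then 1.92, 3.53 and 3.44, which is under 2-fold (−0.84 ± 0.29, adjusted p = 0.0478).

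**Figure D2:**
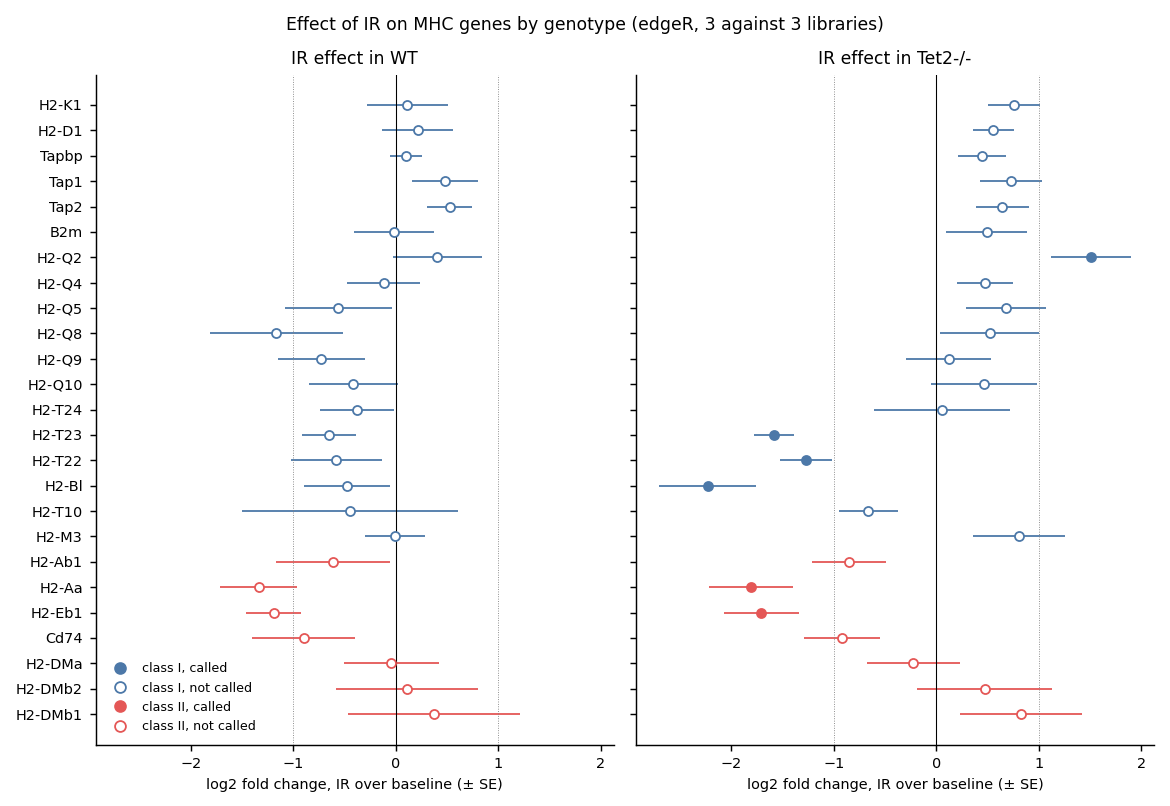
Log2 fold change, IR over baseline, of the class I (blue) and class II (red) loci averaging 1 FPKM or more in some group, in WT (left) and Tet2-/- libraries (right), with bars for the SE of edgeR's fit (3 against 3 libraries) and filled points for called genes. In Tet2-/- libraries H2-Aa and H2-Eb1 lie at −1.81 and −1.71 and H2-T23, H2-T22 and H2-Bl between −1.27 and −2.23, while H2-K1 and H2-D1 lie right of 0 at 0.75 and 0.56.

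In WT mice the same class II genes were lower after IR, and whether they were called depended on the test and on the pairing of libraries. H2-Aa was at 65.6, 29.7 and 38.2 FPKM in WT baseline libraries and at 25.2, 11.6 and 18.2 after IR. H2-Eb1 was at 19.1, 18.4 and 24.4, then 7.77, 7.65 and 12.5. In neither gene did the groups overlap. The log2 fold changes were −1.34 ± 0.37 for H2-Aa (SE, adjusted p = 0.102) and −1.19 ± 0.27 for H2-Eb1 (adjusted p = 0.0660, edgeR's quasi-likelihood test). H2-Oa, with 57.5, 41.5 and 41 counts before and 11, 2.5 and 2 after, had −2.90 ± 0.65 (adjusted p = 0.0657, edgeR), and H2-Ob −2.31 ± 0.67 (adjusted p = 0.109). Cd74 was at 81.6, 51.4 and 113 FPKM and then 37.3, 22.8 and 75.0, with overlap (−0.90 ± 0.50, adjusted p = 0.333). The other class II genes tested were closer to 0 or positive. H2-Ab1, at 43.0, 23.4 and 62.1 FPKM and then 20.3, 15.0 and 50.4, also overlapped (−0.61 ± 0.55, adjusted p = 0.547, edgeR). H2-DMa and H2-DMb2 were near 0 (−0.04 and 0.11), and H2-DMb1 and Ciita had positive values, 0.37 ± 0.84 and 0.80 ± 0.42, with adjusted p from 0.304 to 0.965 over these 4 genes (edgeR).

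Without a block, 0 of 37 members were called in WT, beside 2.35% of all 16043 genes (1.47% higher and 0.879% lower), although 8 had an unadjusted p under 0.05, beside 22.8%. DESeq2 called 4, H2-Aa, H2-Eb1, H2-Oa and H2-Ob, all lower, beside 3.04% of genes lower and 6.1% in either direction. The 6 loci with all IR libraries below baseline were these 4, H2-K2 and H2-Ke6, beside 10.4% of genes. Same-numbered WT libraries deviated together from their group means, and with the replicate number as a block edgeR called 5 members, all class II and all lower, beside 3.48% of all genes that were lower. These were H2-Aa (−1.33, adjusted p = 0.00607), H2-Eb1 (−1.24, adjusted p = 0.00817), H2-Oa (−3.06, adjusted p = 0.0199), Cd74 (−1.03, adjusted p = 0.0202) and H2-Ob (−2.45, adjusted p = 0.0222). In Tet2-/- libraries the block left the count of calls at 11, of which 10 were lower, beside 12.6% of genes lower. With both WT libraries numbered 1 left out, H2-Aa and H2-Eb1 were at −1.21 and −1.10 (adjusted p = 0.183 and 0.230, edgeR), with 2 libraries a group.

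No class I gene of WT libraries was called by edgeR or DESeq2. Of 21 class I loci tested 0 were called, 2 had an unadjusted p under 0.05 (Tap2 and H2-T23), and 1, Tap2, had no overlap above (5.47 to 7.82 FPKM before and 8.77 to 11.99 after, log2 fold change 0.52 ± 0.22 SE, adjusted p = 0.211, edgeR), as had 18.9% of all genes. H2-K1 was at 125, 78.7 and 205 FPKM, then 135, 117 and 205 (0.11 ± 0.40, adjusted p = 0.894). H2-D1 was at 217, 96.1 and 136, then 251, 133 and 161 (0.21 ± 0.35, adjusted p = 0.757). H2-T23 was at 56.2, 93.9 and 102, then 47.4, 53.3 and 65.8, lower in each same-numbered pair but with overlap set by WT baseline replicate 1 (−0.65 ± 0.27, adjusted p = 0.203). With both WT libraries numbered 1 left out its value was −0.75 (adjusted p = 0.219). H2-T22 was at 28.8, 78.1 and 83.5, then 27.6, 47.5 and 56.5 (−0.58 ± 0.45, adjusted p = 0.477, and −0.67 with adjusted p = 0.239 without those libraries).

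**Figure D3:**
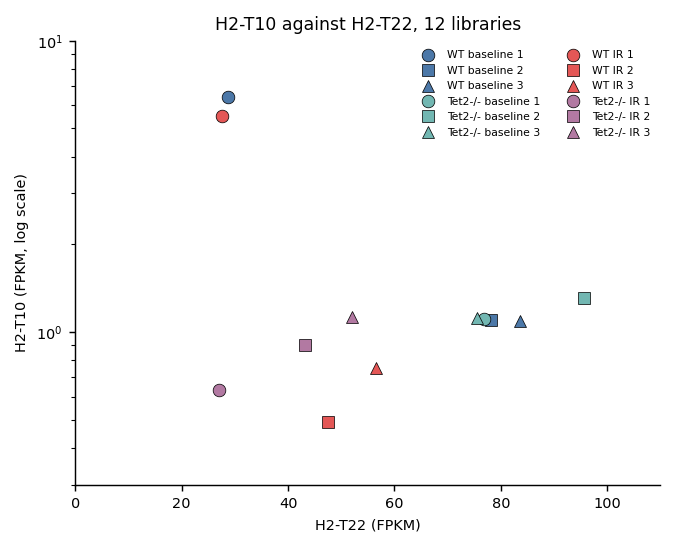
FPKM of H2-T10 (vertical, log scale) against H2-T22 (horizontal) in 12 libraries, 1 point each, with colour for the group and shape for the replicate. WT baseline replicate 1 and WT IR replicate 1 lie at the upper left, with H2-T10 at 6.43 and 5.52, and the other 10 libraries lie at or below 1.31.

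The ratio of H2-T10 to H2-T22 was 0.224 and 0.200 in the 2 WT libraries numbered 1 and 0.0104 to 0.0233 in the other 10. The 2 transcripts are nearly identical, so reads could have gone to either, and the reason for the difference was not tested. H2-T22 at 28.8 FPKM in WT baseline replicate 1 was also under 75.4, the lowest of the other baseline libraries, and the WT baseline SD was 30.2 around a mean of 63.5.

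Whether the effect of IR differed between genotypes was tested by the interaction term over all 12 libraries. Of 38 members tested, 1 was called (adjusted p below 0.05, no limit on the fold), beside 9.19% of all 16755 genes (3.81% higher and 5.38% lower), and 1 by DESeq2, beside 16.8%. This was H2-Ke6, whose fall after IR was larger in Tet2-/- libraries by 0.69 ± 0.18 on the log2 scale (adjusted p = 0.0379, edgeR), at 85.7, 94.0 and 79.6 FPKM in WT baseline and 71.8, 68.1 and 70.4 in WT IR libraries. The call was lost with 8 of the 12 libraries left out singly and with both WT libraries numbered 1 left out (adjusted p = 0.132). H2-T23 and H2-Bl were at −0.89 ± 0.35 (adjusted p = 0.127) and −1.71 ± 0.65 (adjusted p = 0.117). With the replicate number as a block, H2-Ke6 and H2-Bl were called (−0.69 and −1.68, adjusted p = 0.0417 and 0.0399, edgeR), beside 6.09% of genes lower, and H2-T23 was at −0.93 (adjusted p = 0.0574). With the number as a block within each genotype, where the libraries varied together, 3 members were called lower, H2-Ke6 (−0.69, adjusted p = 0.0487), H2-T23 (−0.95, adjusted p = 0.0370) and H2-Bl (−1.72, adjusted p = 0.0435, edgeR), beside 6.49% of genes. For class II, the interaction was −0.43 ± 0.61 for H2-Aa, −0.48 ± 0.50 for H2-Eb1, −0.20 ± 0.74 for H2-Ab1 and 0.02 ± 0.69 for Cd74, and 0 of 10 loci had an unadjusted p under 0.05 by edgeR, beside 27.2% of all genes. A difference of IR effects between genotypes was therefore not shown for class II, and calls in Tet2-/- alone are not evidence of one.

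Between the genotypes after IR, 0 of 36 members were called by edgeR, beside 6.16% of all 16210 genes (2.3% higher and 3.86% lower), with 6 at an unadjusted p under 0.05, beside 28.8%. H2-Ke6 had the lowest adjusted p (−0.44 ± 0.14, 0.0969), with Tet2-/- libraries all below WT libraries, as in 14.6% of genes. H2-Q6 and H2-Q8, the same reads, were at 2.48, 1.73 and 0.953 FPKM (H2-Q6) in WT IR and 2.21, 7.83 and 4.03 in Tet2-/- IR libraries, with overlap (1.35 ± 0.50, adjusted p = 0.134), and were the only members called by DESeq2 (adjusted p = 0.0466 and 0.0493), beside 10.2% of genes. H2-Q5 had no overlap, at 0.503 to 0.739 in WT and 0.937 to 2.09 in Tet2-/- libraries (1.08 ± 0.39, adjusted p = 0.124), as had 22% of all genes that were higher in this way. H2-Aa and H2-Eb1 were at 18.4 ± 6.80 and 9.31 ± 2.78 FPKM in WT and 15.5 ± 6.64 and 10.97 ± 3.96 in Tet2-/- IR libraries.

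Set side by side as classes, class II was lower relative to class I after IR in both genotypes. The summed FPKM of class II over that of class I was 0.301, 0.240 and 0.286 in WT baseline and 0.237, 0.380 and 0.230 in Tet2-/- baseline libraries. After IR it was 0.137, 0.111 and 0.208 in WT libraries, and the Tet2-/- libraries had 0.124, 0.142 and 0.111. All 6 IR libraries lay below all 6 baseline libraries. As a choice of members made with results known, this ratio has no test. Class II sums were 204 ± 66.1, 186 ± 89.9, 117 ± 61.9 and 108 ± 31.1 FPKM (SD, n = 3) in WT baseline, Tet2-/- baseline, WT IR and Tet2-/- IR libraries, and class I sums were 728 ± 181, 636 ± 112, 735 ± 148 and 868 ± 268, so that the class II sums overlapped between baseline and IR within each genotype. The ratio of H2-Aa, H2-Ab1 and H2-Eb1 to H2-K1 and H2-D1 gave the same order, at 0.366 to 0.690 in baseline and 0.0917 to 0.221 in IR libraries.

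By the median log2 fold change of the loci tested, class I stood at −0.32 and class II at −0.76 for IR in WT, beside −0.03 over all genes, and at 0.49 and −0.88 for IR in Tet2-/- libraries, beside 0.04. In Tet2-/- libraries 4 of 10 class II and 3 of 21 class I loci had all IR libraries below baseline, beside 17.9% of all genes, and 0 class II and 6 class I loci had them all above, beside 40.4%. The difference of the class medians in WT, −0.43, was −1.16 without WT IR replicate 3, in which Cd74, H2-Ab1, H2-DMa and H2-DMb1 were the highest of the 3 WT IR libraries. That library also stood apart in endothelial markers, 8 genes summing to 18.3 FPKM against 119 and 74.8 in the other WT IR libraries and 80.4 to 211 in WT baseline libraries. All 8 had negative log2 fold changes after IR in WT (median −1.01, 1 with an unadjusted p under 0.05), as had the 6 natural killer cell genes tested (median −1.55, 2 with an unadjusted p under 0.05), beside 22.8% of all genes under 0.05. In WT, edgeR and DESeq2 called 0 genes of both lists. In Tet2-/- libraries the median after IR was −1.56 over 6 natural killer cell genes (5 negative) and 0.18 over 8 endothelial genes (3 negative). There edgeR called 0 of both lists and DESeq2 called 1, Klrd1 of natural killer cells, lower, beside 24.9% of genes in either direction. The part of these cells in the result was not tested.

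**Figure D4:**
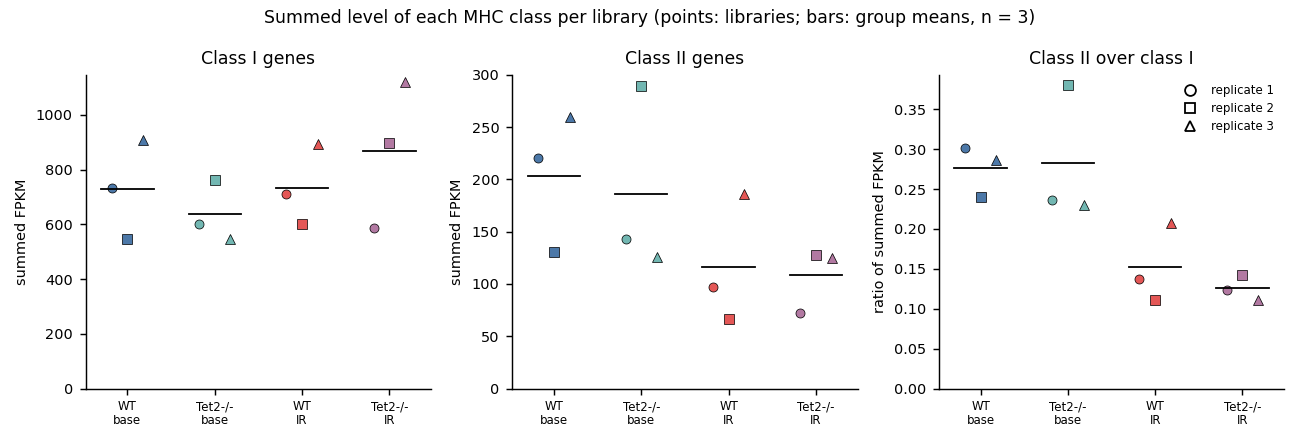
Summed FPKM of the class I genes (left), of the class II genes (middle) and their ratio, class II over class I (right), in 12 libraries, with a bar at each group mean (n = 3) and shapes for replicates. The ratio lies between 0.230 and 0.380 in the 6 baseline libraries and between 0.111 and 0.208 in the 6 IR libraries.

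Other genes of the pathway were read from a fixed list of 41, of which 40 were tested in Tet2-/- libraries. IR there raised 8 and lowered 1 of them, beside 12.8% and 11.6% of all genes. Those averaging 1 FPKM or more were Ifngr2 (1.94 ± 0.12) and Ifngr1 (1.24 ± 0.20), the chains of the interferon gamma receptor, Cd1d1, which presents lipids to natural killer T cells (1.72 ± 0.33), Erap1, which trims class I peptides (1.30 ± 0.21), Psmb10, an immunoproteasome subunit (1.19 ± 0.35), and Ctsl, a protease of class II processing (1.17 ± 0.31), all higher with adjusted p from 9.41e-05 to 0.0283 (edgeR). Calr, a chaperone of class I folding, fell by 1.06 ± 0.19 (adjusted p = 0.00371). The further immunoproteasome and activator genes Psmb8, Psmb9, Psme1 and Psme2 had log2 fold changes of 0.87, 0.06, −0.04 and 0.20, Irf1, an interferon-induced factor, of 0.75, Rfx5, a class II promoter factor, of 0.14 and Ctss, a protease that degrades the invariant chain, of 1.34, none of them called by edgeR without a block (adjusted p from 0.0788 to 0.930). DESeq2 and edgeR with the replicate block each called 9 higher, Ctss being the gene added. Ifng itself was at 0.053 FPKM or less in every library and was not tested.

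In WT libraries IR moved 0 of 39 tested genes of this list past the limits (edgeR), with 5 at an unadjusted p under 0.05, beside 22.8%, and DESeq2 called 0. Psmb10 came nearest, at 8.03, 7.86 and 5.92 FPKM before and 10.7, 15.3 and 14.4 after (0.83 ± 0.20, adjusted p = 0.0793). After IR, Cd1d1 was higher in Tet2-/- than in WT libraries, at 2.33, 1.59 and 2.90 against 0.957, 0.729 and 0.697 FPKM (1.44 ± 0.34, adjusted p = 0.0438, edgeR). March1, a ligase that removes class II from the cell surface, was lower, at 0.290, 0.555 and 0.284 against 0.998, 0.851 and 0.804 (−1.35 ± 0.32, adjusted p = 0.0435), a call lost with the replicate block.

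Markers of cells that make class II moved in part with these results. The summed FPKM of 9 dendritic cell genes ran from 1.80 to 4.05 in WT baseline, 1.66 to 3.94 in Tet2-/- baseline, 0.956 to 2.75 in WT IR and 1.47 to 3.88 in Tet2-/- IR libraries, and Flt3 and Xcr1 were under 0.1 FPKM in every IR library. The summed FPKM of 8 B cell genes ran from 1.44 to 2.24, 1.61 to 2.84, 0.602 to 1.22 and 0.406 to 2.04 in the same order, and that of 12 macrophage genes from 45.8 to 66.7, 44.4 to 73.2, 39.8 to 76.7 and 66.0 to 130. Within the macrophage list the members went opposite ways, Csf1r falling after IR in Tet2-/- libraries from 30.9, 23 and 18.1 to 4.44, 6.93 and 2.21 FPKM (−2.69 ± 0.37, adjusted p = 0.00123, edgeR) while Cd14, Cd68 and Itgam rose. Ptprc, on all leukocytes, was at 0.847, 1.43 and 0.606 and then 0.934, 2.66 and 0.441 in these libraries (0.18, adjusted p = 0.826). Itgax, a dendritic cell gene, Cd79a of B cells and Cd3e of T cells had log2 fold changes of −0.03, −0.20 and −2.17 (adjusted p = 0.977, 0.836 and 0.0833). Over the lists in these libraries, edgeR called 1 of 9 dendritic cell genes higher (Zbtb46, 1.04, adjusted p = 0.0404). Of the 9, 8 had negative log2 fold changes (list median −0.49). Of 7 B cell genes tested, 1 was called lower (Blk, −1.86, list median −1.14). Of 8 T cell genes, 2 were called lower (Cd8a, −2.62, and Cd2, −1.89, list median −1.63). All genes had a median of 0.04, with 12.8% called higher and 11.6% lower. DESeq2 called Zbtb46 higher. It called 2 genes of each list lower (Cd209a and Xcr1, Blk and Cr2, Cd2 and Cd8a), beside 24.9% of genes in either direction. In WT libraries edgeR called 0 genes of these 3 lists after IR, beside 2.35% of all genes. DESeq2 called 2, the T cell genes Cd3g and Cd8a, both lower, beside 3.04% of genes lower. All that were tested by edgeR had negative log2 fold changes. The median was −0.96 over 9 dendritic cell genes (1 with an unadjusted p under 0.05), −1.69 over 8 T cell genes (7 with an unadjusted p under 0.05 and 6 with all IR libraries below baseline) and −1.17 over 5 B cell genes (2 with an unadjusted p under 0.05), beside −0.03 over all genes. Of all genes, 22.8% had an unadjusted p under 0.05 and 10.4% had all IR libraries below baseline. Of 12 macrophage genes in WT libraries, edgeR called 2 higher, beside 1.47% of genes. DESeq2 called Cd14 and Cd68 higher and Csf1r lower, beside 6.1% in either direction. Csf1r was at 21.1, 17.2 and 19.2 FPKM in WT baseline and 15.9, 5.57 and 4.93 in WT IR libraries. Ptprc was at 1.29, 0.639 and 0.998 FPKM in WT baseline and 0.741, 0.469 and 0.276 in WT IR libraries (−1.06 ± 0.40, adjusted p = 0.177, edgeR). S100a8, a neutrophil gene, was at 0.576 to 0.776 FPKM in Tet2-/- baseline libraries and 27.4 to 47.2 in Tet2-/- IR libraries (5.59 ± 0.29, adjusted p = 4.75e-05, edgeR). In WT libraries it was at 0.287 to 0.814 at baseline and 1.77 to 3.29 after IR (1.96 ± 0.48, adjusted p = 0.0789, edgeR), and DESeq2 called it higher. The 8 proximal tubule genes summed to 2940 to 3856 FPKM at baseline and 629 to 922 after IR in Tet2-/- mice, and to 3336 to 3424 and then 1662 to 2321 in WT mice. The part of these cells in the levels of the MHC genes was not tested.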

How the data were processed

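RNA-seq of whole kidneys gave 12 libraries in 4 groups of 3. The authors aligned reads to mm9 with STAR, counted RefSeq transcripts with HOMER and deposited expected counts without normalization, which rise in steps of 0.5. They also deposited FPKM of the same transcripts. Tool versions are not given in the sources used here. The 34600 transcripts name 24421 symbols, and the transcript with the highest total stood for a symbol. Expected counts were rounded and tested in edgeR 4.0.16 (R 4.3.3) with TMM, its filter on low counts, the quasi-likelihood test and p-values adjusted by Benjamini-Hochberg across every gene tested. Each comparison used its own 6 libraries, the interaction all 12. Calls required an adjusted p below 0.05 and, except for the interaction, a log2 fold change beyond 1 in either direction. Alternatives were DESeq2 1.42.0, limma 3.58.1 on log2(FPKM + 1) and log2(FPKM + 0.1), other scalings and filters, all 12 libraries in a single fit, all deposited transcripts, the replicate number as a block and each library left out. Scripts were tested on simulated counts. An exact permutation test of 3 against 3 libraries cannot go below p = 0.1 and was not used.

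The members and lists were chosen with earlier results of these data known. Members averaging 1 FPKM or more in some group or called in any comparison are named, other members being given by number and range, and from the pathway and marker lists up to 8 called genes with the largest change that averaged 1 FPKM or more, and a few fixed genes (H2-T3, H2-Ea-ps, H2-Q1, Ciita, Nlrc5, Cd14, Cd68, Itgam, S100a8, Xcr1, Zbtb46, Cd209a, Blk, Cr2, Cd8a, Cd3g, Cd2, Klrd1, Cd80, March1, Socs1, Nfyc and Pdia3 were named after their values were seen). Values of 1 fixed gene of the pathway list are not reported here. Within a genotype, baseline and IR libraries with the same number varied together. Their deviations from the group means correlated over 16755 genes at 0.348, 0.349 and 0.345 for WT, and at 0.120, 0.350 and 0.204 for Tet2-/-. The pairing comes from these correlations only, since the mice differ. GENCODE transcripts were compared with BLAST 2.17.0, and promoters are RefSeq sequences on GRCm38.p6.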

Additional observations from a re-analysis of the deposited data

Results flagged for a closer look

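The effect of IR differed between genotypes by the interaction term over 12 libraries in 1 of 38 members and 7 of 40 pathway genes tested, beside 9.19% of all 16755 genes (edgeR's quasi-likelihood test, adjusted p from 0.0104 to 0.0466). Of the members, H2-Ke6 fell more in Tet2-/- libraries, with an interaction of −0.689 on the log2 scale. In the pathway list, the interaction was −1.18 for Calr and −0.781 for Pdia3, both chaperones of class I folding, and −0.729 for Nfyc, a subunit of the factor that binds the Y box. It was 1.9 for Cd1d1, 1.11 for Ifngr2 and 2.1 for Socs1, an inhibitor of cytokine signalling. It was 5.4 for Cd80, a costimulatory ligand, at 0.016 FPKM or less in Tet2-/- baseline libraries and at 0.097 to 0.507 in Tet2-/- IR libraries. Causes were not tested.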

How the results depend on the processing

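Members called for the genotype difference after IR numbered 0, and 2 with DESeq2. For IR in WT 0 were called, 4 with DESeq2, 1 with all 12 libraries in a single fit, 1 with limma on log2(FPKM + 1), 2 on log2(FPKM + 0.1), 5 with the replicate block, and 0 to 2 with single libraries left out (H2-Oa and H2-Ob without WT IR replicate 1, H2-Eb1 without WT IR replicate 3). The difference of class medians in WT ran from −1.16 to −0.28 with single libraries left out. For IR in Tet2-/- mice the 11 became 5 with limma on log2(FPKM + 1) and 7 to 12 with single libraries left out, 7 without Tet2-/- baseline replicate 2. The interaction's 1 became 0 with library sizes alone, 0 with limma on log2(FPKM + 0.1), 0 without both WT libraries numbered 1, 2 with the replicate block, 3 with the block within genotype and 0 to 1 with single libraries left out. Adding all transcripts of each gene gave class II sums of 296 FPKM in WT baseline and 158 in Tet2-/- IR libraries. The block changed no other count of called members by over 1.5 times. In the pathway list after IR it called Cd1d1 and Cd80 higher and 0 lower, against 1 higher and 1 lower without it. In the settings run, no direction of a called member reversed. Leaving out the WT libraries numbered 1 and the block within genotype were chosen after seeing the data. Genotype comparisons share only a number (correlations from −0.175 to 0.302), where the block called 0 members. The causes were not tested.

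With 3 mice a group and SDs near the size of the mean in low genes, changes under about 2-fold were often within the spread. Low counts limit H2-Oa, H2-Ob and H2-M2, and shared reads limit the paired H2 symbols.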
